A study of Homo sapiens with 8 samples.

Results

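The leukocyte immunoglobulin-like receptors (LILR) were followed across the treatments of an acute myeloid leukaemia (AML) cell line. They were taken by gene symbol as the 5 LILRA genes LILRA1, LILRA2, LILRA3, LILRA5 and LILRA6 and the 4 LILRB genes LILRB1, LILRB2, LILRB3 and LILRB4, which are 9 of the 26364 genes measured. The filter for testing, a level of 1 TPM or more in 2 or more libraries, was passed by all 9 members and by 14151 genes in all. TPM, the deposited measure, is a transcript level corrected for gene length and scaled to the same sum in every library, so levels of different genes could be compared.

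The libraries came from MV4-11, a human AML cell line whose labels give an internal tandem duplication of FLT3 and an MLL-AF4 fusion, features that all groups share. Cells received the vehicle DMSO (control), tranylcypromine at 5 µM (TCP, an inhibitor of the histone demethylase LSD1, the product of KDM1A), palbociclib at 0.5 µM (an inhibitor of the kinases CDK4 and CDK6), or both (combination), and were collected at day 4. The study's methods describe the AML lines as grown on HS-5 stromal cells and treated with the CDK6 inhibitor alone before both molecules were given together. Each of the 4 groups had 2 libraries, 8 in all, from this single cell line. The labels do not say whether the replicates were separate cultures, so the p-values measure the spread between these libraries, which may be technical.

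As background, LILR proteins are cell surface receptors with immunoglobulin-like domains, carried mainly by monocytes, macrophages, dendritic cells and neutrophils. LILRA receptors have a short cytoplasmic tail and signal through the activating adaptor chain encoded by FCER1G, whose phosphorylated motifs bind the kinase SYK, except LILRA3, which lacks a membrane anchor and is secreted. LILRB receptors carry inhibitory motifs in their own tails, which Src family kinases phosphorylate and which recruit phosphatases such as those encoded by PTPN6, PTPN11 and INPP5D. Several members of both kinds, among them LILRB1, LILRB2 and LILRA1, bind class I HLA molecules.

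The members lie in the leukocyte receptor complex of chromosome 19. In GRCh37, the build of the hg19 assembly the authors mapped to, LILRB2 (54777666 to 54785039) and LILRA5 (54818353 to 54824436) lay on the minus strand, and LILRA2 (55084387 to 55101752), LILRA1 (55105047 to 55113846), LILRB1 (55128612 to 55149473) and LILRB4 (55155340 to 55181810) on the plus strand. LILRB3 and LILRA6 are annotated there as overlapping genes of the minus strand, at 54720147 to 54746602 and 54720737 to 54746649. No position is given for LILRA3. Of the stretches of 50 bases in 1 reference transcript of LILRA6, 39.1% were found unchanged in that of LILRB3, and 25.7% of those of LILRB3 were found in LILRA6. LILRB1 and LILRB2 shared 8.55% and 9.88% of theirs with each other, and LILRA2, LILRA5 and LILRB4 shared at most 3.86% with any other LILR gene. The counting could therefore have split reads between LILRA6 and LILRB3, and the values of this pair are uncertain as those of single genes. To a smaller degree this also holds for LILRB1 and LILRB2.

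The bases before the start of the reference transcript did not sort the members into activating and inhibitory ones. The following stretches of 100 bases, read 5′ to 3′ on the strand of each gene from the GRCh37 genome with transcript starts of GENCODE v44lift37, are shown because they are alike between LILRA1, LILRB1 and LILRB2, with the 8 bases GGGGAAGT in capitals, which lay 88, 87 and 88 bases before the start. They are chr19:55104964-55105063 on the plus strand, chr19:55141803-55141902 on the plus strand and chr19:54784999-54785098 on the minus strand.
LILRA1: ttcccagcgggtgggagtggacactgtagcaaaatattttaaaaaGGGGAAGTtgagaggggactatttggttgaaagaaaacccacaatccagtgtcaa
LILRB1: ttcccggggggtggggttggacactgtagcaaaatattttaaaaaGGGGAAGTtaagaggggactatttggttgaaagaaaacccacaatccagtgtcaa
LILRB2: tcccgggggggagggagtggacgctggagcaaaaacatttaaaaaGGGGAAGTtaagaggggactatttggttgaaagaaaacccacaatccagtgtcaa
Of the 100 bases, compared without gaps, 95 were identical between LILRA1 and LILRB1, 89 between LILRA1 and LILRB2 and 90 between LILRB1 and LILRB2. The 8 bases were found on either strand in 1.85% of 19588 promoter windows of protein-coding genes, each from 250 bases before to 50 bases after a start.

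Another block joined LILRA2, LILRA6 and LILRB4. Their stretches at chr19:55085162-55085261 on the plus strand, chr19:54746687-54746786 on the minus strand and chr19:55174301-55174400 on the plus strand hold the 9 bases CTTCCTGTG in capitals, and in LILRA6 the capitals also cover TTCCTC, the reverse complement of GAGGAA, which overlaps them by 1 base.
LILRA2: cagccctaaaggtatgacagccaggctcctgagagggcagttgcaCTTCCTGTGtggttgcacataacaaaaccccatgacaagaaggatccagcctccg
LILRA6: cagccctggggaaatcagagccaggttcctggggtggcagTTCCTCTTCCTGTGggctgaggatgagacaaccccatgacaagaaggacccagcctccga
LILRB4: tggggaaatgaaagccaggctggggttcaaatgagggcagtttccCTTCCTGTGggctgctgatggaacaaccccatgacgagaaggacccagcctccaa
Lined up on the block without gaps, 70 of 100 bases were identical between LILRA6 and LILRB4, 55 between LILRA2 and LILRA6 and 41 between LILRA2 and LILRB4. An added or missing base, as after the block in LILRA2, lowers these counts, so they understate the likeness. The 9 bases were found on either strand in 0.837% of the 19588 windows. Both blocks were picked after the sequences had been read, so their sharing is a description. LILRA5 was the member with the highest fold change of log2(TPM + 1) in the combination. Neither LILRA5 nor LILRB3 held either block in its exact letters. The stretch of LILRA5 at chr19:54824437-54824536 on the minus strand does hold gggaagt, the letters that end GGGGAAGT. It is given with a reverse complement of GAGGAA in capitals.
LILRA5: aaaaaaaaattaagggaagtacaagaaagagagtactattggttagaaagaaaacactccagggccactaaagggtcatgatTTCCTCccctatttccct
GAGGAA, letters bound by the myeloid factor SPI1, was found on either strand in the windows of LILRA5, LILRA6 and LILRB4, 3 of 8 members against 27.2% of all windows, and TTGCNNAA, letters bound by C/EBP factors, in that of LILRA5 alone, 1 of 8 against 8.09%. Only these exact letters were searched, so other forms of either site were not counted. The blocks above were not compared with the sites of any factor. No window was read for LILRA3.

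In untreated MV4-11 cells the family was led by the inhibitory LILRB4, which binds APOE and fibronectin. LILRB4 measured 74.0 and 69.6 TPM in the 2 control libraries, and the next member, LILRA2, measured 27.4 and 21.6 TPM. LILRA1 followed at 12.6 and 16.0, LILRB1 at 8.78 and 10.4 and LILRB2 at 5.71 and 4.77 TPM, each below the one before it in both libraries. LILRB3 (2.37 and 1.90 TPM) and LILRA5 (1.73 and 1.90 TPM) overlapped. LILRA6 at 0.893 and 0.579 TPM and LILRA3 at 0.302 and 0.298 TPM were below 1 TPM, so they passed the filter through treated libraries and their fold changes start from a low and less certain base. LILRA3 was below 1 TPM with TCP as well, so it entered the test only through libraries given palbociclib.

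With the combination every member was higher than in any other library, and the order of the family changed. LILRB4 was still first, at 189 and 200 TPM, but LILRB1 came next, at 115 and 151 TPM, above LILRA2 at 86.6 and 110 TPM. LILRA2 and LILRA1 (69.2 and 86.8 TPM) overlapped. LILRA5 moved to 52.0 and 44.6 TPM, above LILRB2 at 32.8 and 35.0 and LILRB3 at 20.8 and 21.8 TPM. LILRA6 (13.1 and 12.7 TPM) and LILRA3 (12.7 and 9.54 TPM) remained the lowest.

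**Figure D1:**
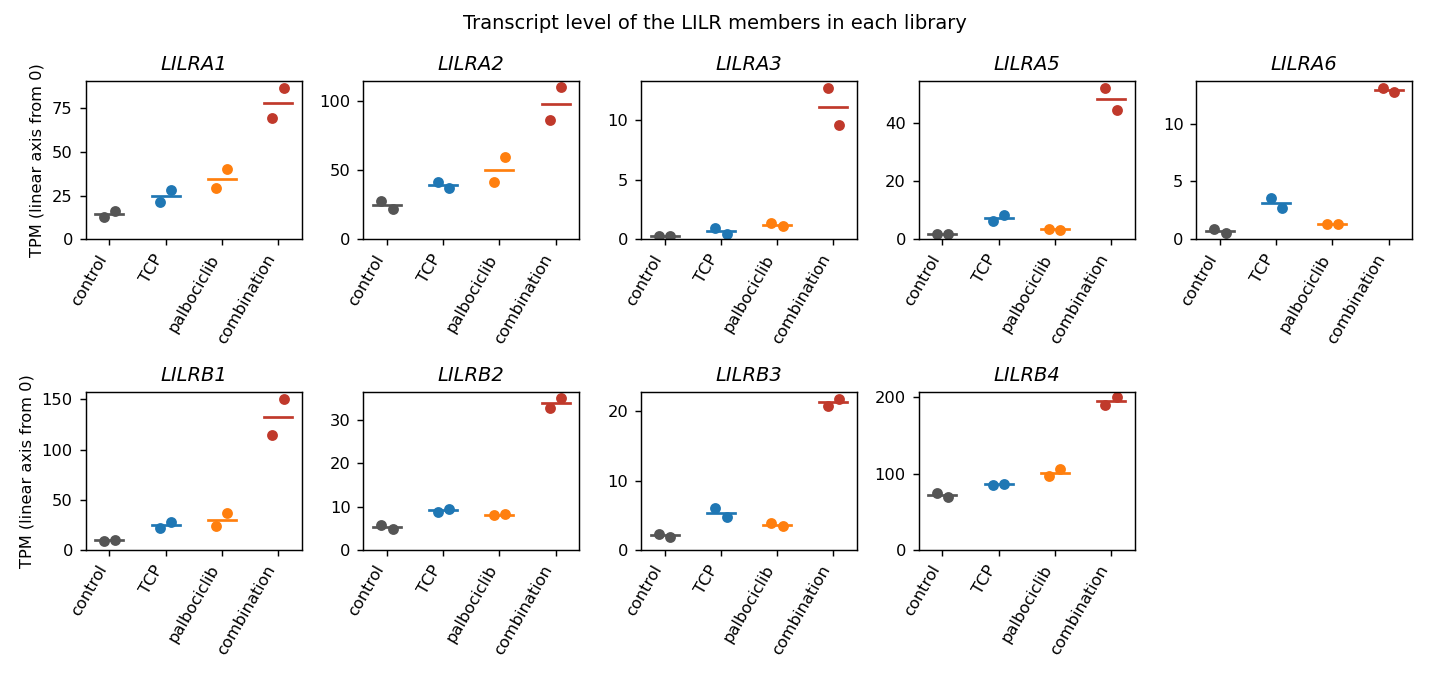
Transcript level in TPM, on a linear axis from 0 that differs between panels, of the 9 members in the 2 libraries of each group (points), with the group mean as a line. Both combination libraries lie above all 6 others for each member, as for LILRB1 at 115 and 151 TPM against at most 36.7 TPM elsewhere.

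Among the LILRA members, LILRA5, carried by monocytes and neutrophils, had the largest rise on the tested scale. It measured 6.42 and 8.37 TPM with TCP and 3.57 and 3.34 TPM with palbociclib. Its combination mean was 48.3 ± 5.27 TPM (SD, n = 2) against 1.82 ± 0.117 in the controls, 26.6 times as high, with a log2 fold change of log2(TPM + 1) of 4.13 (SE 0.15, limma adjusted p = 1.2e-05). LILRA3, the secreted member, measured 0.955 and 0.437 TPM with TCP and 1.34 and 1.08 TPM with palbociclib. It was the member with the largest ratio of means, 37.0. Its log2 fold change of 3.21 (SE 0.21) was below that of LILRA5, since the added 1 TPM shrinks the change of a low gene. Because LILRA3 entered the test only through libraries given palbociclib, no p is given for it here. LILRA6, whose outer domains resemble those of LILRB3, measured 3.54 and 2.67 TPM with TCP and 1.33 and 1.32 TPM with palbociclib, and rose by 3.01 (SE 0.17) with the combination.

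LILRA1 and LILRA2, the activating members already present in the controls, rose less on the log2 scale with the combination, though not in TPM. LILRA1 measured 21.5 and 28.4 TPM with TCP, 29.3 and 40.0 with palbociclib, and its combination mean was 5.46 times the control mean. Its log2 fold change was 2.37 (SE 0.21, limma adjusted p = 0.000176). LILRA2, a sensor of immunoglobulins cut by microbial proteases, measured 41.5 and 37.3 TPM with TCP and 41.5 and 59.6 with palbociclib. It rose by 1.96 (SE 0.20, limma adjusted p = 0.000315) with the combination, 4.02 times in the means. Neither gene overlapped with the controls under any treatment.

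Among the inhibitory members, LILRB1, a receptor for class I HLA, rose most on the log2 scale. It measured 21.5 and 28.3 TPM with TCP and 23.8 and 36.7 TPM with palbociclib, and its combination mean of 133 ± 25.4 TPM (SD, n = 2) was 13.8 times the control mean of 9.58 ± 1.14. The log2 fold change was 3.65 (SE 0.24, limma adjusted p = 6.1e-05), and the annotation holds an antisense gene over LILRB1, whose reads can be told apart only if the counting used the strand. LILRB3 measured 6.02 and 4.78 TPM with TCP and 3.82 and 3.50 with palbociclib, and rose by 2.84 (SE 0.15) with the combination. LILRB2, a receptor for HLA-G and angiopoietin-like proteins, measured 8.77 and 9.56 TPM with TCP and 8.12 and 8.20 with palbociclib, and rose by 2.49 (SE 0.11).

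LILRB4 had the smallest rise of the 9 on the log2 scale, though not in TPM. It measured 85.5 and 86.9 TPM with TCP and 96.7 and 105 TPM with palbociclib. Its combination mean of 195 ± 7.99 TPM (SD, n = 2) was 2.71 times the control mean of 71.8 ± 3.11, a log2 fold change of 1.43 (SE 0.08, limma adjusted p = 3.4e-05).

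Against control, the combination raised all 9 members by the limma test (log2 fold change of at least 1 and Benjamini-Hochberg adjusted p below 0.01 over all 14151 genes), where 5.87% of the tested genes were called higher. LILRA3 and LILRA6 entered the test only through treated libraries, so their calls add no support to this count. The median log2 fold change of the 9 was 2.84, beside -0.22 over all tested genes. Both combination libraries were above both control libraries for all 9 members, as they were for 26.0% of the tested genes. All 9 calls were kept under every alternative tried, each library left out included, except that a filter of 5 TPM on the mean over libraries left LILRA3 and LILRA6 untested and 7 calls. RNA of bulk cultures was measured, so more cells that carry a receptor and more RNA per cell cannot be told apart here or in any result below.

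Neither molecule alone gave this. TCP alone raised no member by the limma test, against 0.0565% of genes called higher, and the call was close for a few of them. LILRA5 changed by 1.57 (SE 0.15, adjusted p = 0.0126), LILRA6 by 1.24 (adjusted p = 0.0397) and LILRB3 by 1.03 (adjusted p = 0.0465). LILRB1 changed by 1.28 with an adjusted p of 0.102, which became 0.00686, a call, when the replicate number was kept as a block. The median over the 9 members was 0.76, beside -0.04 over all tested genes. Both TCP libraries were above both control libraries for all 9 members, and for 12.4% of the tested genes. Over all genes TCP had an unadjusted p below 0.05 for 1241.

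With palbociclib alone a few members rose. LILRB1 (1.53, SE 0.24, adjusted p = 0.00236), LILRA1 (1.21, SE 0.21, adjusted p = 0.00383) and LILRA2 (1.002, SE 0.20, adjusted p = 0.00708) passed the limma test, 3 of 9 members against 4.54% of all tested genes. LILRB4 (0.49, adjusted p = 0.00265) and LILRB2 (0.56, adjusted p = 0.00711) passed the threshold of p and not that of fold change, and LILRA6 was at 0.43 (adjusted p = 0.0728). The median over the 9 was 0.66, beside -0.16 over all tested genes, and both palbociclib libraries were above both control libraries for all 9 members and for 26.5% of the tested genes.

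Of these 3 calls that of LILRA2 lay near both thresholds, and all 3 depended on single libraries. Palbociclib replicate 2 was the higher of its pair for LILRA1, LILRA2 and LILRB1. Without it the log2 fold changes were 0.996, 0.75 and 1.23, with adjusted p of 0.0279, 0.0407 and 0.0145, and no member was called, while the genes called higher went from 643 to 414 over all genes. Without control replicate 1 or control replicate 2 no member was called either, with 495 and 496 genes called higher, and the log2 fold changes were 1.05 and 1.38 for LILRA1, 1.17 and 0.84 for LILRA2 and 1.42 and 1.64 for LILRB1. The same library had the highest sum of stromal marker genes, 75.0 TPM over 10 genes against 1.02 to 13.6 TPM in the other 7, with COL1A1 at 22.2 TPM against at most 3.78 TPM, and the part of these transcripts in the result was not tested.

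**Figure D2:**
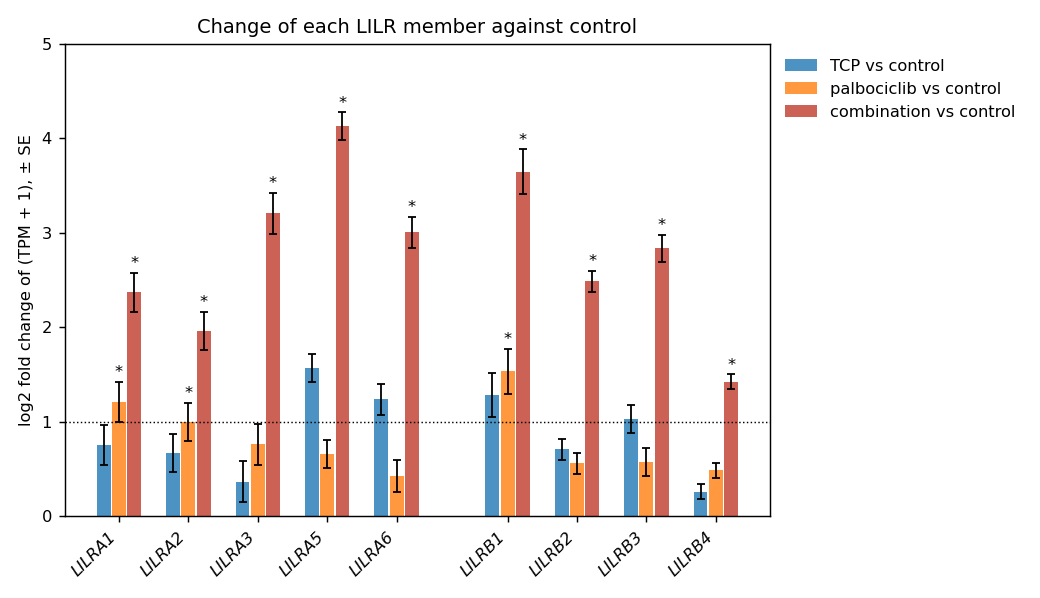
Log2 fold change of (TPM + 1) against control, with its SE from limma, for each of the 9 members under TCP, palbociclib and the combination. A star marks a log2 fold change of at least 1 (dotted line) with an adjusted p below 0.01. All 9 combination bars carry it, from 1.43 for LILRB4 to 4.13 for LILRA5, as do the palbociclib bars of LILRA1, LILRA2 and LILRB1, and no TCP bar does. LILRA3 and LILRA6 entered the test only through treated libraries.

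The values of the members under the single molecules are set side by side here as a description. LILRA5 and LILRA6 were higher with TCP than with palbociclib in both libraries, as was LILRB3. LILRA1 and LILRB4 were higher with palbociclib in both libraries. LILRB1 overlapped between them. LILRA3 and LILRA2 were higher with palbociclib in both libraries and LILRB2 with TCP. The nearest libraries were close for LILRA1, at 28.4 TPM with TCP and 29.3 with palbociclib. They were closer still for LILRA2, at 41.46 and 41.54 TPM. Each kind held members of both sorts, so this split did not follow the split into LILRA and LILRB. The direct contrast of the single molecules was not tested. The share of all genes without overlap between these 2 groups was not counted either, so the members cannot be set against the background here.

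The combination was set against each molecule to ask what the other added. Against TCP, all 9 members were called higher by limma, where 5.46% of the tested genes were, with log2 fold changes from 1.17 (LILRB4) to 2.84 (LILRA3) and a median of 1.78 beside -0.18 over all genes. LILRA3 entered the test only through libraries given palbociclib, so its call adds no support to this count. The combination libraries lay above the TCP libraries for all 9, and for 25.9% of the tested genes. Against palbociclib, 6 of 9 members were called higher, where 0.459% of the tested genes were. They were LILRA5 (3.46, adjusted p = 0.000491), LILRA6 (2.58), LILRA3 (2.44), LILRB3 (2.26), LILRB1 (2.11, adjusted p = 0.00813) and LILRB2 (1.93). The remaining 3 were LILRA1 (1.16, adjusted p = 0.0362, and 0.00135 with the replicate block, a call), LILRA2 (0.96, adjusted p = 0.0555) and LILRB4 (0.94, adjusted p = 0.00342). The median of the 9 was 2.11 beside -0.07 over all genes, and the combination libraries lay above the palbociclib libraries for all 9 and for 16.6% of the tested genes.

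Leaving out either palbociclib library or either combination library left 0 calls among the members, and only 1 call among all 14151 genes, so these fits say little about the members. The fold changes themselves moved little, with LILRA5 between 3.35 and 3.57, LILRA6 between 2.56 and 2.60, LILRB2 between 1.88 and 1.97 and LILRB1 between 1.81 and 2.41. A fit of these 2 groups alone left 1 of the members called, and 10 of all genes. The rise against palbociclib was large in the means, 14.0 times for LILRA5, 9.71 for LILRA6, 9.17 for LILRA3 and 5.82 for LILRB3, against 1.93 for LILRB4 and 1.95 for LILRA2.

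Whether the rise under both molecules differed from the sum of the single rises on the log2 scale was asked with the interaction term. No member passed, and 0% of the tested genes were called in this term by limma, with an unadjusted p below 0.05 for 904 genes. The estimate was above 0 for all 9 members, from 0.29 (LILRA2, adjusted p = 0.983) and 0.40 (LILRA1) to 1.90 (LILRA5, adjusted p = 0.172) and 2.08 (LILRA3, SE 0.30, adjusted p = 0.20), with a median of 1.22 beside -0.03 over all genes. With the replicate block the adjusted p ranged from 0.0873 to 0.761. All 9 share the same control libraries, so their signs are not separate observations.

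The LILRA members were summed by their name as the activating genes, with the secreted LILRA3 among them. They held 42.9 and 40.4 TPM in the controls, 73.9 and 77.2 with TCP, 77.1 and 105 with palbociclib and 234 and 264 with the combination. The inhibitory genes held 90.9 and 86.7, 122 and 130, 132 and 154, and 357 and 408 TPM in the same order. Both sums rose together, and the family went from 134 and 127 TPM to 591 and 672 TPM. The LILRA share of the summed level was 32.1% and 31.8% in the controls, 37.7% and 37.3% with TCP, 36.8% and 40.6% with palbociclib, and 39.5% and 39.3% with the combination, so each treated library was above both controls. An exact permutation test of 2 against 2 libraries cannot go below p = 0.333, so the share is given without a test.

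The share of the LILRA members turned on a single inhibitory gene. LILRB4 made up 55.3% and 54.8% of the summed level in the controls and 32.0% and 29.8% with the combination, while LILRB1 went from 6.56% and 8.18% to 19.4% and 22.4%. In an alternative added after the values were seen, the sums were taken without LILRB4. The LILRA share was then 71.8% and 70.3% in the controls and 58.1% and 56.0% with the combination, lower rather than higher, and with each single molecule it was lower than control too (67.1% and 64.4% with TCP, 68.3% and 68.5% with palbociclib). In the difference of the mean log2(TPM + 1) of the LILRA and of the LILRB members, each gene weighs the same. Its changes against control were 0.10 (TCP), 0.02 (palbociclib) and 0.33 (combination). TCP and the combination kept the direction of the share of all 9. The palbociclib libraries (-1.181 and -1.202) overlapped the controls (-1.235 and -1.197), so no direction can be read there. The direction of the share of summed TPM thus depended on whether LILRB4 was counted.

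**Figure D3:**
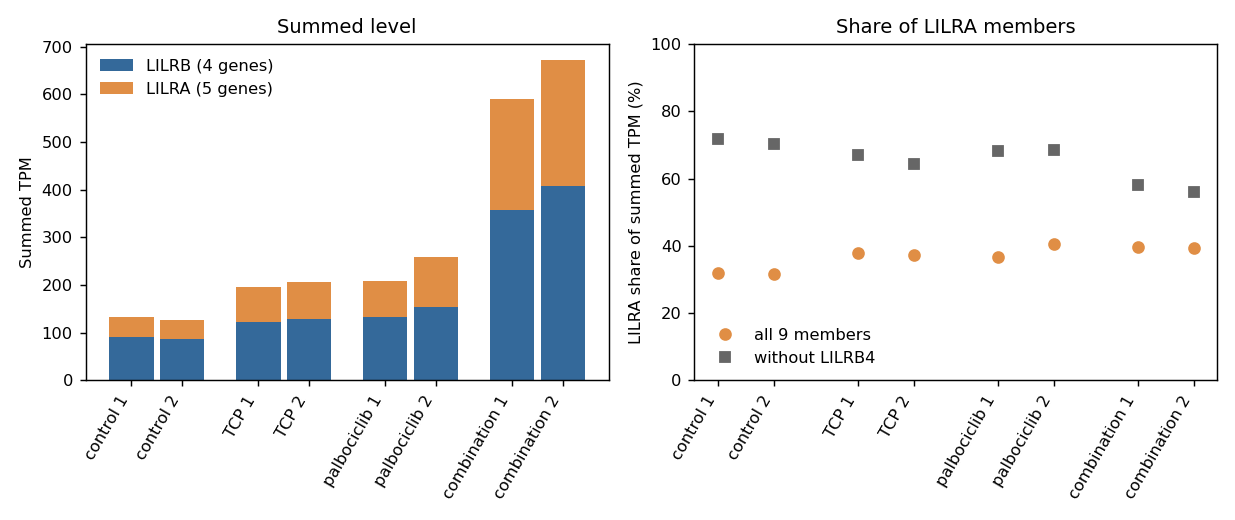
Left, summed TPM of the 4 LILRB and 5 LILRA members in each of the 8 libraries, stacked. Right, the LILRA share of that sum in percent, for all 9 members (circles) and without LILRB4 (squares). The circles go from 32.1% and 31.8% in the controls to 39.5% and 39.3% with the combination, and the squares from 71.8% and 70.3% to 58.1% and 56.0%.

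The signalling partners of both kinds of receptor were read from a list of 8 genes, all of them tested. With the combination none of them fell by the test, where 1107 of the 14151 tested genes did, and the median over the list was 1.02. FCER1G, the adaptor of the activating members, measured 43.6 and 28.0 TPM in the controls, 80.3 and 45.7 with TCP, 304 and 337 with palbociclib and 669 and 772 with the combination, a log2 fold change of 4.32 (SE 0.28, limma adjusted p = 6.4e-05). The Src family kinases FGR (3.35) and LYN (1.6) rose as well. The phosphatase genes of the inhibitory pathway did not pass the fold threshold, with PTPN6 at 0.77, INPP5D at -0.54 and PTPN11 at -0.61, and SYK was at 0.32 (adjusted p = 0.0682). Palbociclib alone raised 3 of the 8 (FCER1G 3.16, FGR 3.27 and LYN 1.05), TCP alone none, and the combination against palbociclib none. Of all tested genes, 4.54%, 0.0565% and 0.459% were called higher in these comparisons. No difference from the background can therefore be read from the counts of none.

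Of 10 genes for ligands, 9 were tested, ANGPTL2 being too low. Palbociclib raised HLA-B (1.06) and HLA-C (1.05), and TCP raised none of the 9. The combination raised HLA-E (1.01), with HLA-B at 0.96 and HLA-C at 0.97 just below the fold threshold, and the median of the 9 tested was 0.97. HLA-B measured 419 and 365 TPM in the controls, 397 and 356 with TCP, 797 and 837 with palbociclib and 757 and 772 with the combination, so both groups given palbociclib were above the other two. APOE was at 2.68 and 1.90 TPM with the combination and below 1 TPM in all other libraries, 0.250 and 0.328 TPM in the controls, so it entered the test only through the combination libraries and no call is given for it. No ligand gene was called between the combination and palbociclib, where 0.459% of all tested genes were called higher. With TCP that share was 0.0565%, so no difference from the background can be read from either count of none.

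Of 14 other receptor genes of the same complex 6 were tested, with a median log2 fold change of 0.60 with the combination. FCAR, the Fc receptor for IgA, which also signals through the FCER1G chain, measured 0.0464 and 0.329 TPM in the controls. It measured 0.586 and 0.627 TPM with TCP, 35.5 and 40.0 with palbociclib and 69.9 and 61.2 with the combination. Its log2 fold change was 5.82 (SE 0.15) with the combination and 5.04 with palbociclib alone. KIR3DL2, at 0.452 and 0.559 TPM in the controls and 2.14 and 2.71 with the combination, was at 1.18. FCAR and KIR3DL2 entered the test only through libraries given palbociclib, so no call is given for them. The pseudogene KIR3DX1, at 5.47 and 4.94 TPM in the controls, fell by 1.52. The inhibitory collagen receptor LAIR1 was at 0.33. Of the LILR genes outside the 9, LILRB5 measured 1.34 and 1.61 TPM with the combination and at most 0.685 TPM elsewhere, so it entered the test only through the combination libraries and its log2 fold change of 1.19 is given as a value. Below the filter were LILRA4 (at most 0.706 TPM) and the pseudogene LILRP2 (at most 0.307 TPM).

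Of 13 genes without a receptor that flank the members, 12 were tested, with a median of 0.15 with the combination. Among these MBOAT7 (1.02, limma adjusted p = 0.00504) and TMC4 (1.03, adjusted p = 0.00698) rose and none fell, and none was called against either single molecule or with either alone. Of all tested genes 5.87% were called higher with the combination, 5.46% against TCP and 0.459% against palbociclib. The shares were 4.54% with palbociclib and 0.0565% with TCP, so no difference from the background can be read from the counts of none. All 9 members changed by more than the flanking genes on the log2 scale in the combination. LAIR1, which lies between LILRA5 and LILRA2, was at 0.33.

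**Figure D4:**
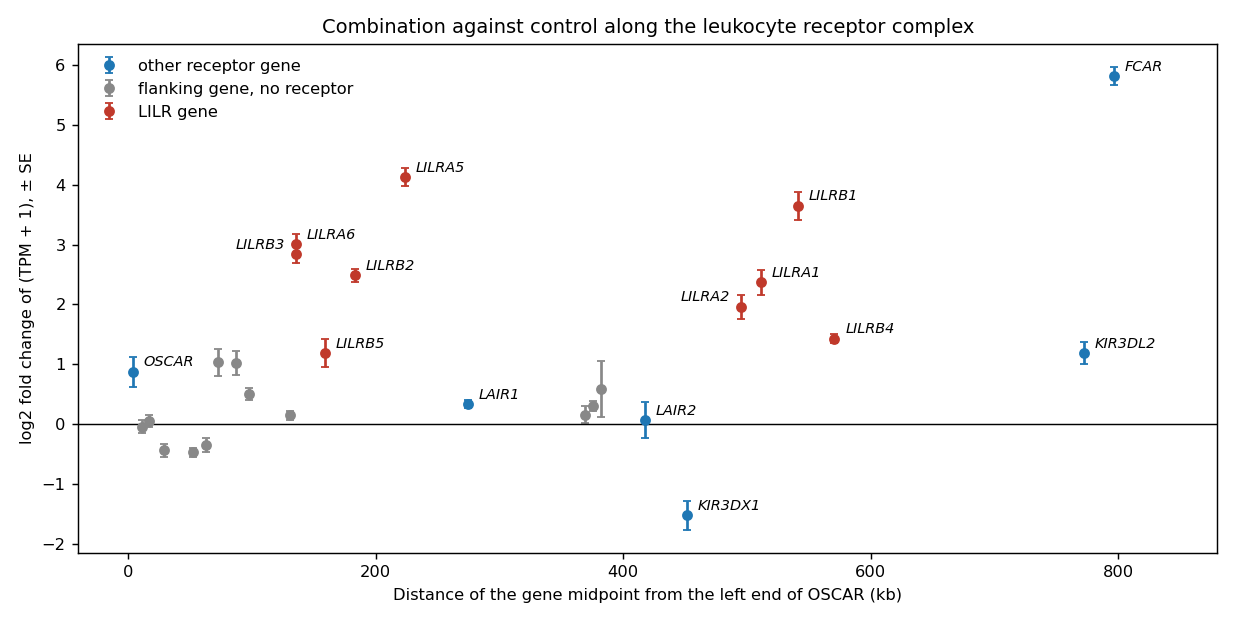
Log2 fold change of (TPM + 1), combination against control, with its SE, for each tested gene of the leukocyte receptor complex that the annotation places, by the distance of its midpoint from the left end of OSCAR in kb. LILR genes (red) lie between 1.19 (LILRB5) and 4.13 (LILRA5), the flanking genes (grey) reach at most 1.03 (TMC4), and FCAR is the highest, at 5.82.

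Of 10 genes for transcription factors and chromatin proteins of the myeloid lineage, all tested, none fell with the combination by the test. Of all 14151 tested genes 1107 did. KLF4, a monocyte factor, rose by 2.28, from 7.26 and 4.27 TPM to 31.5 and 30.5. CEBPD (1.12), CEBPB (1.07) and SPI1 (1.01) followed. SPI1 measured 214 and 250 TPM in the controls, 208 and 264 with TCP, 410 and 464 with palbociclib and 437 and 497 with the combination. KDM1A, which encodes the target of TCP, was at -0.81 with the combination and -0.86 with palbociclib, and the repressor GFI1 at 0.06. Between the combination and palbociclib 0 of these 10 were called, where 0.459% of all tested genes were called higher, so no difference from the background can be read from it.

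The genes whose levels ran most like the mean log2(TPM + 1) of the 9 members over the 8 libraries were NLRC4 (Pearson r = 0.999), a sensor of the inflammasome, TBC1D12 (0.995), KCTD12 (0.991), ADAP2 (0.991) and KIAA0513 (0.990). The points share libraries and 4 groups of 2, so r describes these libraries only. The members themselves had r from 0.947 (LILRA2) to 0.996 (LILRB2) with their own mean. NLRC4 measured 5.77 and 5.31 TPM in the controls, 9.17 and 9.02 with TCP, 8.28 and 8.69 with palbociclib and 22.9 and 24.2 with the combination. KCTD12 went from 3.61 and 3.35 TPM in the controls to 38.2 and 30.8 TPM with the combination.

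The cell identity was read from marker lists. CD33 lay between 103 and 141 TPM in all libraries and PTPRC, the pan-leukocyte gene, between 27.8 and 71.5 TPM, and of the 7 myeloid blast genes CD4 rose by 1.18 and FLT3 fell by 1.71 with the combination, while HOXA9 was at -0.74, PTPRC at 0.69, MPO at 0.65, MEIS1 at -0.44 and CD33 at 0.33. The T cell genes CD3E and CD2 and the B cell gene MS4A1 were listed at 0 in every library. In the list for T and NK cells 5 of 6 genes were below 1 TPM everywhere, and NKG7 alone held 168 to 311 TPM. In that for plasmacytoid dendritic cells 3 of 4 genes were below 1 TPM everywhere, and NRP1 rose by 1.65. The B cell list summed to between 3.05 and 8.06 TPM. Among the stromal genes 3 of 10 stayed below 1 TPM, and the sums were 1.02 and 5.40 TPM in the controls, 1.04 and 5.44 with TCP, 4.72 and 75.0 with palbociclib and 7.62 and 13.6 with the combination. The stromal sums of the combination libraries were above those of the controls while all 9 members were higher, and the part of stromal transcripts in that rise was not tested.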

How the data were processed

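RNA-seq of 8 MV4-11 libraries was analysed. The authors prepared stranded mRNA libraries, used subread-align for mapping to hg19 and featureCounts 1.6.4 for counting, and converted the counts to TPM, the deposited values used here. The submitters' processing notes also name SAMtools 1.9. The gene annotation, the gene lengths and the strand setting are not given in the sources used here. TPM keep no depth, so the depth of each library is unknown and no counting interval is given. Groups were taken from the labels.

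From the deposited TPM, log2(TPM + 1) of each gene past the filter was fitted in R 4.3.3 by limma 3.58.1 with a coefficient for each group, moderated variances with a mean-variance trend and 4 residual degrees of freedom. Fold changes on this scale understate the change of low genes. A call needed a log2 fold change of 1 or more in size and an adjusted p (Benjamini-Hochberg, over the 14151 tested genes) under 0.01. The fit was tested on simulated data. The genes named are the 9 members, those of the lists that passed a test or have a role described, and the 5 genes most correlated with the mean of the members. Some genes of the lists are not reported here, and the list medians and numbers tested include them. Members and lists were chosen with earlier results of these data known.

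Groups share the replicate numbers 1 and 2. Libraries with the same number deviated together from their group means, with correlations across genes of 0.169 to 0.491 in all 6 pairs of groups. The main fit did not use the numbers, and only the alternative fit with the replicate block treated them as pairing. The pairing comes from these values alone, and the values reported are those without the block unless it is named. Sequences were read from the GRCh37 genome at the starts of 1 transcript per gene of GENCODE v44lift37, and motifs were searched on both strands.

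Alternatives changed the pseudocount (0.1), the filter (none, or a mean over all libraries of 5 TPM or more), the scaling (quantile normalization, median ratio), the model (the replicate block, the compared groups alone, no trend), the threshold of the adjusted p (0.05) and the libraries (each left out). The LILRA share was recomputed without LILRA3, without LILRA6 and LILRB3, as a difference of mean log2 values and, chosen after seeing the data, without LILRB4.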

Additional observations from a re-analysis of the deposited data

How the results depend on the processing

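No fold change of a member turned its direction under any alternative. The 9 calls of the combination against control and against TCP became 7 with a filter of 5 TPM on the mean, which left LILRA3 and LILRA6 untested. Those against control were otherwise kept under every alternative, and those against TCP were between 7 and 9 with 1 library left out, where LILRA2 lost its call without TCP replicate 2 and LILRA1 and LILRA2 without combination replicate 2. The 0 calls with TCP became 1 with a pseudocount of 0.1 (LILRA5), 1 with the replicate block (LILRB1) and 3 at an adjusted p below 0.05 (LILRA5, LILRA6 and LILRB3), and stayed at 0 with any library left out. The 3 calls with palbociclib became 1 (LILRB1) with no filter on low values, 2 without the mean-variance trend and in a fit of only the groups compared (LILRA2 lost in both), and between 0 and 3 with 1 library left out. The 6 calls of the combination against palbociclib became 1 in a fit of only the groups compared, 4 with a pseudocount of 0.1 (LILRA3 and LILRB1 lost), 4 with the filter of 5 TPM on the mean, 5 with no filter or no trend (LILRB1 lost), 7 with the replicate block (LILRA1 added), 7 with median ratio scaling (LILRB4 added), 7 at an adjusted p below 0.05 (LILRA1 added), and between 0 and 5 with 1 library left out. The paired fit with the block changed no other call of a member, and the interaction had 0 calls in every setting. A fit with 1 library left out assumes that the lone library varies like the other groups.

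The rise of the LILRA share with the combination, 7.48 percentage points, was 6.54 without LILRA3. Without LILRB4 the changes of 5.61 points with TCP, 6.79 with palbociclib and 7.48 with the combination were -5.33, -2.64 and -13.99 points. Median ratio scaling moved the median log2 fold change of all tested genes in the combination from -0.22 to -0.01 and that of the 9 members from 2.84 to 3.02, and quantile normalization moved them to -0.07 and 2.96. Genes called higher in the combination were 830 against 1107 lower (42.8%) in the main setting, 1003 against 786 (56.1%) with quantile normalization and 1104 against 680 (61.9%) with median ratio scaling.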
